A study of Mus musculus with 6 samples.

Results

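The enzymes described here handle glutathione, thioredoxin and peroxides. They are the glutathione S-transferases (GSTs, cytosolic and microsomal), the glutathione peroxidases Gpx1, Gpx7 and Gpx8, the peroxiredoxins, thioredoxins and thioredoxin reductases, glutaredoxins, superoxide dismutases, catalase, gamma-glutamyl transferases and the enzymes that make and recycle glutathione. Members were chosen by gene symbol, with earlier results of these data known. Of the 16472 genes in the authors' deposited table, 53 matched. Another 9 symbols in the RefSeq gene table that fit the same rule, among them Gstk1, Gstm4, Gpx2 and Gpx3, were not analysed here. The rule itself leaves out the glutathione peroxidase Gpx4.

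The study exposed HT22 cells, an immortalised mouse hippocampal line, to AA147 or to its DMSO vehicle for 16 h, with 3 libraries in each group and no genotype difference named between them. AA147 is a compound reported to activate the stress regulators ATF6 and NRF2, and the labels state its dose as 10 mM. A micromolar dose is more usual for such a compound, so the labelled unit may be a typing error. The table used here gives 1 comparison, with 1 line per gene and values over whole groups, so each library's own value is not shown. The means, log2 fold changes, standard errors (SE) and adjusted p-values below are therefore all those of the authors' deposited table, and the spread between libraries is seen only through the SE. Nothing in the labels says that the 3 libraries of a group came from separate experiments, so this spread may be technical. The table does not name the numerator of the fold change. A positive value is read here as higher with AA147, and every "higher" or "lower" is conditional on that reading. If the ratio was formed the other way, the signs reverse and each pair of vehicle and AA147 levels or shares below is exchanged.

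Cells neutralise peroxides and electrophiles with a pair of linked thiol systems. Glutathione is built by glutamate-cysteine ligase (Gclc and Gclm) and glutathione synthetase (Gss), is used by GSTs to tag electrophiles and by peroxidases to reduce peroxides, and is recycled by glutathione reductase (Gsr). Thioredoxins serve the peroxiredoxins in the same way and are recycled by thioredoxin reductases, both at the cost of NADPH. Many of these genes are known targets of NRF2, a transcription factor that binds antioxidant response elements when its inhibitor KEAP1 is modified by electrophiles.

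Of the 53 members, 47 had an adjusted p in the authors' deposited table, and 26 of these were called at an adjusted p under 0.05, 18 positive and 8 negative. Over all genes tested, 20.2% were called, 9.05% positive and 11.1% negative, against 38.3% and 17.0% of the members. Because earlier results were known when members were chosen, this comparison is a description and not a test. The median log2 fold change of the 47 was 0.15 in the authors' deposited table, against 0.01 over all genes tested. Members were also more abundant than most genes, and among genes with a mean of at least 100 the shares were 10.7% positive and 13.1% negative over all genes and 38.1% and 16.7% over 42 members. The 6 members without an adjusted p (Gstm3, Gstt1, Gstt2, Ggt1, Ggt6 and Ggt7) had means from 1.66 to 4.81 in the authors' deposited table. Another 3 (Gsta2, Gsta3 and Gm10639) had an implied level in the lower group under 8.41, the largest mean that went without an adjusted p, so they were tested only because of their level in the other group. Without these, 15 positive and 8 negative calls remained among 44 members. Many members share sequence with other genes, through copies or overlap on the opposite strand. Leaving out those that share over 20% of their transcript's 50-base stretches, an alternative chosen after the data were seen, left 11 positive and 6 negative calls. Members that were not called, among them Gss, Gpx1 and Sod1, dropped out as well, so these counts are out of fewer than 47 members.

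**Figure D1:**
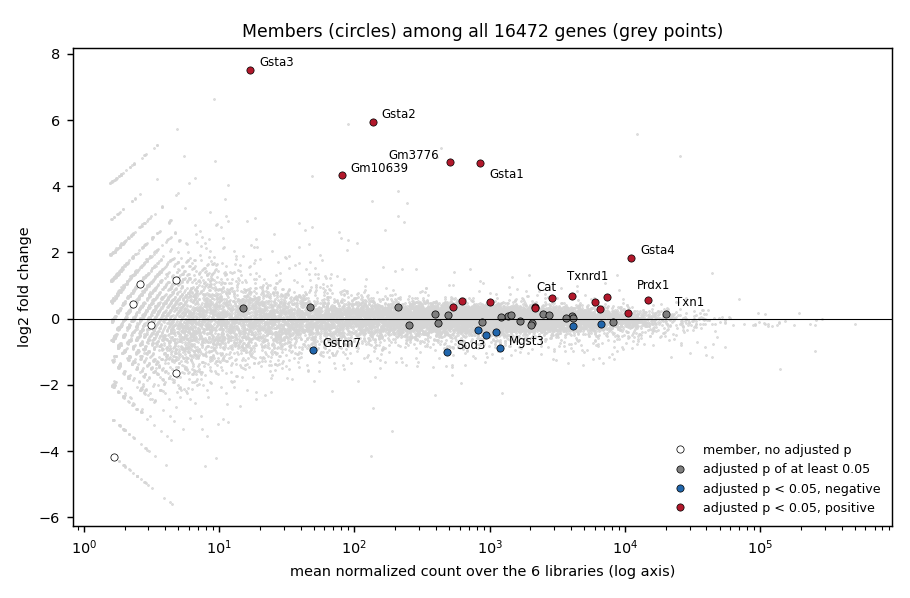
Mean normalized count over the 6 libraries (log axis) against the log2 fold change for all 16472 genes (grey points) and for the 53 members (circles, coloured by call). Gsta3, Gsta2, Gm3776, Gsta1 and Gm10639 lie above 4, Gsta4 lies at 1.84 with a mean of 11088, and the other called members lie between -1.02 and 0.68.

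The label of the cells was compared with marker genes. Of 14 neuronal markers only Tubb3, Camk2a and Slc17a7 were in the authors' deposited table, and only Tubb3, a tubulin that other cell types also make, had a mean above 100 (1199). All 7 mesenchymal markers were present in that table, with means from 2168 for Thy1 to 254004 for Col1a2. The calls among these 7 were 0 positive and 4 negative, with Col1a1 at -1.52 and Pdgfrb at -0.97, while Thy1 at -0.03, Vim at -0.08 and Fn1 at -0.11 were not called in the authors' deposited table. Tubb3 was called positive at 0.43 (adjusted p 5.67e-05), as was the microglial marker Csf1r at 0.95 (adjusted p 0.0278) with a mean of 48.0, in the authors' deposited table. The astrocyte marker Slc1a3 averaged 927 normalized counts with a fold change of -1.30, while the listed oligodendrocyte, microglial and endothelial markers had means of at most 48.0 in the authors' deposited table. The implied summed level of the mesenchymal list was 817357 in vehicle and 474120 in AA147, and that of the 3 astrocyte markers in the table was 1353 and 560. The part of a shift in cell state in the values below was not tested, and in bulk RNA fewer cells of a type and less RNA per cell cannot be told apart.

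The alpha-class GSTs had the highest fold changes among the members, and all 6 were called positive. These enzymes conjugate glutathione to electrophiles, and Gsta4 is known for its preference for the lipid peroxidation product 4-hydroxynonenal. Gsta1 had a mean of 852 normalized counts and a log2 fold change of 4.69 (adjusted p 8.68e-250, SE 0.14) in the authors' deposited table. With equal groups, this mean and fold change imply 63.4 counts in an average vehicle library and 1640 in an average AA147 library. Gm3776, which current GENCODE annotation names Gsta13, followed it closely at 4.72 (adjusted p 2.48e-151, SE 0.18) in the authors' deposited table, with implied levels of 37.2 and 984. Gm10639, now named Gsta5, changed by 4.33 (adjusted p 5.45e-27, SE 0.39) at a mean of 80.6 in the same deposited table. These 3 genes had 95% intervals of 4.42 to 4.96, 4.37 to 5.07 and 3.57 to 5.09, which overlap.

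Gsta2 lay above them at 5.96 (adjusted p 4.09e-39, SE 0.44) in the authors' deposited table, with an interval of 5.09 to 6.82 that only just missed theirs. Its implied levels were 4.32 and 268 counts, so the fold change rests on few reads in the lower group. Gsta3 had the largest fold change of all 16472 genes in the authors' deposited table, 7.53 (adjusted p 1.09e-07, SE 1.27). Its mean was 16.9 and its implied lower level was 0.183 counts per library, which is under 1 read, so the size of this fold cannot be read. Gsta4 was far more abundant, with a mean of 11088, and its fold change of 1.84 (adjusted p 1.24e-142, SE 0.071) in the authors' deposited table implies 4847 and 17329 counts. Its interval of 1.70 to 1.98 did not reach those of the other alpha genes.

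The alpha genes are shown by the start of their coding sequences, because their near identity limits how far single values can be read. The first 60 coding bases of the GENCODE M39 canonical transcripts follow, 5′ to 3′, with capitals where a gene differs from Gsta1 at the same position.
Gsta1: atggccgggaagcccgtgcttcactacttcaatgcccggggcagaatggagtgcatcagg
Gm3776: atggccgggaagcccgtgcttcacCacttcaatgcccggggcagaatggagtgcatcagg
Gm10639: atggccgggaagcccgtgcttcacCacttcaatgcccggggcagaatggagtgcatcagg
Gsta2: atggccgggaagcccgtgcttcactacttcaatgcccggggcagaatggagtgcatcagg
Gsta3: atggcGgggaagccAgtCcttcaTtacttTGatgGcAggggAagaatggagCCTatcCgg
Gsta4: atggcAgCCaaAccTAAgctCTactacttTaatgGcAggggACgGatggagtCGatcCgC
In this stretch Gsta2 had 0 differences from Gsta1, Gm3776 and Gm10639 had 1 each, Gsta3 had 13 and Gsta4 had 19. Over the whole coding sequence, identity to Gsta1 was 99.7% for Gm3776, 97.6% for Gsta2 and 97.0% for Gm10639, but 74.2% for Gsta3 and 66.6% for Gsta4. Of the 50-base stretches of each transcript, 92.3% of those of Gm3776 and 88.6% of those of Gsta1 also occurred in transcripts of another gene, mainly in each other. The shares were 62.5% for Gsta2 and 59.6% for Gm10639, and 0% for Gsta3 and Gsta4. How the authors counted reads that fit several genes is not given in the sources used here, so the split of reads among Gsta1, Gm3776, Gm10639 and Gsta2 is uncertain. Their sum is not affected by that split if each such read was counted once, and it was 113 implied counts in vehicle and 3045 in AA147, or 4.76 on the log2 scale.

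Those 4 genes lie next to each other on chromosome 9 in the RefSeq gene table, together with Gsta4, while Gsta3 is on chromosome 1. Gsta1, Gm3776, Gm10639 and Gsta2 were all called positive, but how reads were split among them is uncertain. The 80 bases before the RefSeq start site of each are printed (assembly GRCm38.p6, 5′ to 3′ on the gene's strand). Capitals mark the longest run of letters present in all 4, of 13 bases.
Gsta1 (chr9:78230589-78230668, plus strand): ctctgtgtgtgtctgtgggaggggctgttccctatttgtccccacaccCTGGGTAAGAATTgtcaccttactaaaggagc
Gm3776 (chr9:78257049-78257128, plus strand): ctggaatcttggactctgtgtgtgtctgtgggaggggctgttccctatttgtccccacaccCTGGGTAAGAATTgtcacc
Gm10639 (chr9:78289848-78289927, plus strand): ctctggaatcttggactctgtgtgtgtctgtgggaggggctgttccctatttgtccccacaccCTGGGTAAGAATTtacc
Gsta2 (chr9:78347146-78347225, minus strand): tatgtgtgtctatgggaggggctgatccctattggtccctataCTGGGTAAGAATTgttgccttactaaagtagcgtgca
The annotated starts are offset by some bases, so the run lies at different distances from them. Over the aligned part of the 250 bases before the start, identity to Gsta1 was 99.6% for Gm3776, 98.7% for Gm10639 and 77.0% for Gsta2. The promoter table held no window for Gsta4.

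Members of the mu class differed in direction from gene to gene. Gstm1, the most abundant, had a mean of 2173 and was higher at 0.34 (adjusted p 4.14e-05, SE 0.071) in the authors' deposited table. Gstm2 was lower at -0.40 (adjusted p 6.42e-05, SE 0.086) and Gstm5 lower at -0.48 (adjusted p 7.25e-05, SE 0.10), with means of 1104 and 934 in the authors' deposited table. Gstm7 had the lowest fold change of the class in that deposited table, -0.96 (adjusted p 0.0240, SE 0.33), at a mean of 49.4. Intervals were 0.20 to 0.48 for Gstm1 and -0.57 to -0.23 for Gstm2, so the neighbours did not overlap. The calls of the mu class were all lost when every test statistic was divided by the robust SD of all of them, 1.80. With a Bonferroni adjustment the calls of Gstm5 and Gstm7 were lost. Gstm6 was not called at 0.33 (adjusted p 0.772, SE 0.59) in the authors' deposited table, and its mean of 15.0 allowed an interval of -0.84 to 1.49. These genes sit in 1 cluster on chromosome 3 and are less alike than the alpha copies, with 85.9% coding identity between Gstm1 and Gstm2. Still, 21.6% of the 50-base stretches of Gstm1 and 31.4% of those of Gstm2 occurred in transcripts of other genes, against 0% for Gstm7. Gstm5 overlaps the antisense gene 4933431E20Rik over 19.8% of its transcript, and that gene lay at -0.23 in the authors' deposited table, in libraries that do not mark strand.

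The pi-class pair moved together. Gstp1 and Gstp2 encode the pi GSTs, of which Gstp1 is the abundant form. Gstp1 averaged 6036 normalized counts with a fold change of 0.52 (adjusted p 4.25e-09, SE 0.080), and Gstp2 averaged 623 with 0.54 (adjusted p 0.000299, SE 0.13) in the authors' deposited table. The Gstp2 call was lost with a Bonferroni adjustment or with the statistic divided by its robust SD, while that of Gstp1 was kept. The coding sequences were 98.1% identical, and 71.6% of the 50-base stretches of Gstp2 and 56.3% of those of Gstp1 recurred in other genes' transcripts, so the share of Gstp2 is uncertain. Among the other cytosolic classes, Gsto1, an omega GST with reductase activity, was higher at 0.30 (adjusted p 0.000386, SE 0.072) with a mean of 6506 in the authors' deposited table. The theta GST Gstt1 was listed at -4.18 (SE 1.93) but had a mean of only 1.66 and no adjusted p in the authors' deposited table. Gsto2, Gstt3 and Gstz1 were not called, with fold changes of 0.34, 0.15 and 0.12 and adjusted p-values from 0.447 to 0.596 in the authors' deposited table.

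Per kilobase of transcript, the implied summed level of the cytosolic GSTs was 15809 in vehicle and 28206 in AA147. The alpha class accounted for most of that gap, with 2426 and 11681, a ratio of 4.82. Gsta4 alone made up 14.5% of the cytosolic GST level in vehicle and 29.1% in AA147, whereas Gstp1 went from 34.8% to 27.9%. Gsta1 went from 0.453% to 6.56%. With the opposite reading of the fold change these shares trade groups, so that Gsta4 would hold 29.1% in vehicle and 14.5% in AA147, and Gstp1 27.9% and 34.8%. The same shares per kilobase of coding sequence were 22.6% and 42.7% for Gsta4 and 24.5% and 18.5% for Gstp1, so the order of Gstp1 and Gsta4 within vehicle holds on both scales, while in AA147 Gsta4 was the larger on both. These sums carry no error of their own, since only values over whole groups were used here.

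**Figure D2:**
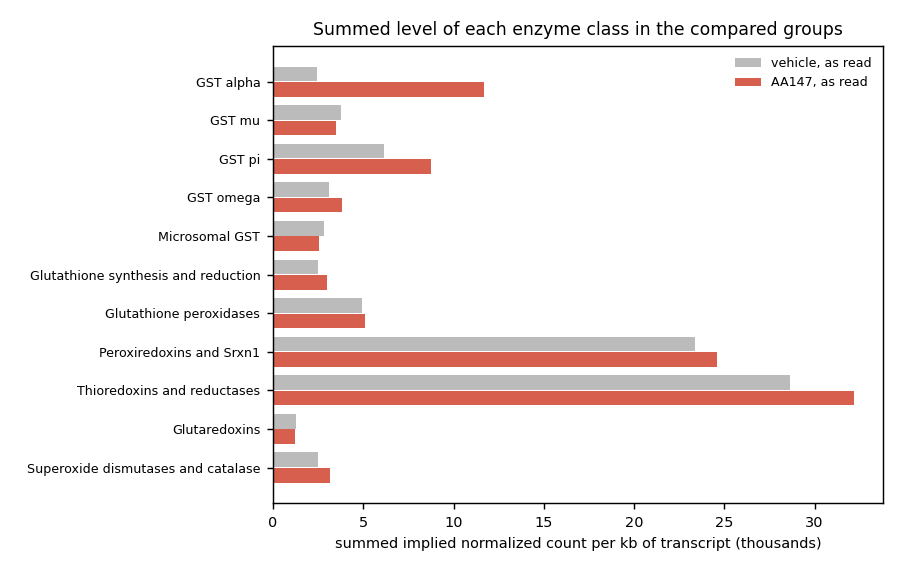
Summed implied normalized count per kb of transcript for 11 enzyme classes (horizontal axis from 0), in vehicle (grey) and AA147 (red) as read. The alpha GSTs differ most, with 2426 against 11681, and no error bars are drawn because the table used holds values over whole groups.

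Microsomal GSTs, membrane proteins with transferase and peroxidase activity, split in direction. Mgst2 was higher at 0.35 (adjusted p 0.00764, SE 0.10) with a mean of 535 in the authors' deposited table. Mgst3 was lower at -0.90 (adjusted p 1.11e-18, SE 0.096) with a mean of 1197 in the authors' deposited table, which implies 1557 counts in vehicle and 837 in AA147. Mgst1 lay between them at 0.07 (adjusted p 0.671, SE 0.092) in the authors' deposited table. The intervals of Mgst2, 0.14 to 0.55, and Mgst3, -1.08 to -0.71, were far apart, and neither gene shared a 50-base stretch with another gene's transcripts. The Mgst2 call was lost with a Bonferroni adjustment or with the statistic divided by its robust SD, while that of Mgst3 was kept.

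Glutathione synthesis began with calls for both subunits of glutamate-cysteine ligase, the rate-limiting enzyme. The modifier subunit Gclm had a mean of 2881 and was higher at 0.63 (adjusted p 9.49e-13, SE 0.081) in the authors' deposited table. The catalytic subunit Gclc, with a mean of 2156, was higher at 0.32 (adjusted p 9.30e-05, SE 0.070) in that deposited table. Their intervals, 0.47 to 0.78 and 0.18 to 0.46, did not overlap. The Gclc call was lost with a Bonferroni adjustment or with the statistic divided by its robust SD, while that of Gclm was kept. The next step, Gss, lay at 0.10 (adjusted p 0.493, SE 0.092) in the authors' deposited table. Gss overlaps Acss2 on the opposite strand over 47.9% of its transcript, and Acss2 had a fold change of -0.85 there, so reads from the overlap cannot be assigned to either gene in these unstranded libraries. Gsr, which returns oxidised glutathione to its reduced form, had 0.15 (adjusted p 0.0998, SE 0.068) and was not called in the authors' deposited table. It passed once fold changes were centred on equal totals, at 0.21.

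Gamma-glutamyl transferases, which break down glutathione outside the cell, were barely detected. Ggt1, Ggt6 and Ggt7 had means of 3.14, 4.81 and 2.31 in the authors' deposited table and no adjusted p. At this depth a change of these genes was not detectable, with SEs from 1.07 to 1.59 in the authors' deposited table.

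The glutathione peroxidases Gpx1, Gpx7 and Gpx8 gave 0 calls in the authors' deposited table, although 2 of the 3 had an unadjusted p under 0.05. Gpx1, the abundant cytosolic selenoenzyme, averaged 4028 normalized counts with a fold change of 0.09 (adjusted p 0.384, SE 0.070) in the authors' deposited table, with an interval of -0.04 to 0.23. Gpx7 and Gpx8 are peroxidases of the endoplasmic reticulum. Gpx7 lay at 0.34 (adjusted p 0.149, SE 0.17) and Gpx8 at -0.15 (adjusted p 0.132, SE 0.070) in the authors' deposited table. The upper bound for Gpx8 of -0.01 and the lower bound for Gpx7 of 0.01 fall close to no change. Gpx1 overlaps an antisense transcript, Gm57050, over 80.5% of its length.

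Peroxiredoxins, which reduce hydrogen peroxide at the expense of thioredoxin, were among the most abundant members and differed in sign. Prdx1, the main cytosolic form, had a mean of 14708 and was higher at 0.56 (adjusted p 1.62e-18, SE 0.061) in the authors' deposited table. This implies 11878 counts in vehicle and 17538 in AA147. Srxn1, the sulfiredoxin that repairs overoxidised peroxiredoxins, was higher by a similar amount, 0.51 (adjusted p 6.42e-08, SE 0.086), at a mean of 1013 in the authors' deposited table. Prdx6, the form that uses glutathione in place of thioredoxin, was called at 0.17 (adjusted p 0.0464, SE 0.065) in that deposited table. This call was lost when fold changes were centred on abundant genes or when p-values were adjusted over every gene.

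The other peroxiredoxins lay below 0. Prdx2, a second cytosolic form, was lower at -0.17 (adjusted p 0.0133, SE 0.055), and the mitochondrial Prdx3 at -0.21 (adjusted p 0.00650, SE 0.062) in the authors' deposited table. Both calls were lost when fold changes were centred on equal totals, where Prdx2 lay at -0.12 and Prdx3 at -0.15. Prdx5 at -0.20 (adjusted p 0.0682) and Prdx4, the form of the endoplasmic reticulum, at -0.09 (adjusted p 0.259) were not called in the authors' deposited table. The interval of Prdx1, 0.44 to 0.68, lay clear of those of the other 5 peroxiredoxins, which ran from -0.36 to 0.29. Prdx2 overlaps Rnaseh2a on the opposite strand over 31.0% of its transcript, with a fold change of 0.21 for Rnaseh2a, and Prdx5 overlaps Trmt112 over 46.3%, with 0.12 for Trmt112 in the authors' deposited table. The summed peroxiredoxin level per kilobase of transcript was 23278 in vehicle and 24434 in AA147, a ratio of 1.05. Per kilobase of coding sequence it was 65705 and 73828, a ratio of 1.12. With Srxn1 included, Prdx1 made up 19.0% of the class in vehicle and 26.7% in AA147 per kilobase of transcript. Per kilobase of coding sequence the shares were 29.4% and 38.3%. Each pair is reversed if the fold change was formed the other way.

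The thioredoxin reductases of different compartments moved in opposite directions. Txnrd1, the cytosolic selenoenzyme, had a mean of 7317 and was higher at 0.67 (adjusted p 5.15e-23, SE 0.064) in the authors' deposited table. Txnrd2, its mitochondrial counterpart, had a mean of 818 and was lower at -0.36 (adjusted p 0.00156, SE 0.094) in the same deposited table. Txnrd3, known from testis, was not called at -0.11 (adjusted p 0.434, SE 0.090) in the authors' deposited table. Intervals were 0.54 to 0.79 for Txnrd1, -0.54 to -0.17 for Txnrd2 and -0.29 to 0.06 for Txnrd3. The Txnrd2 call was lost with a Bonferroni adjustment or with the statistic divided by its robust SD, while that of Txnrd1 was kept. The thioredoxins themselves were not called. Txn1, cytosolic thioredoxin, lay at 0.15 (adjusted p 0.0526, SE 0.059), and Txn2, the mitochondrial form, at 0.03 (adjusted p 0.832, SE 0.064) in the authors' deposited table. The Txn1 value was called under a centring on equal totals and among genes with a mean of at least 100.

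Txn1 was the most abundant member on either length scale, with a mean of 25581 per kilobase of transcript, the 99.8th percentile of genes matched to a transcript. Prdx4 at 7371, Gstp1 at 6677, Prdx1 at 5502 and Gsta4 at 5258 followed per kilobase of transcript. Reads from the overlap of Prdx4 with Acot9 cannot be assigned to either gene in these unstranded libraries, so the place of Prdx4 is uncertain. Per kilobase of coding sequence the order after Txn1 was Prdx1 at 24636, Gsta4 at 16649, Prdx6 at 15547, Prdx2 at 11125 and Prdx4 at 9953. The order therefore depends on the length used, and the canonical transcripts of Sod1, Srxn1 and Gclm span 5315, 7203 and 6349 bases. No error of the levels is given in the authors' deposited table, so neighbours in this order cannot be tested against their spread.

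**Figure D3:**
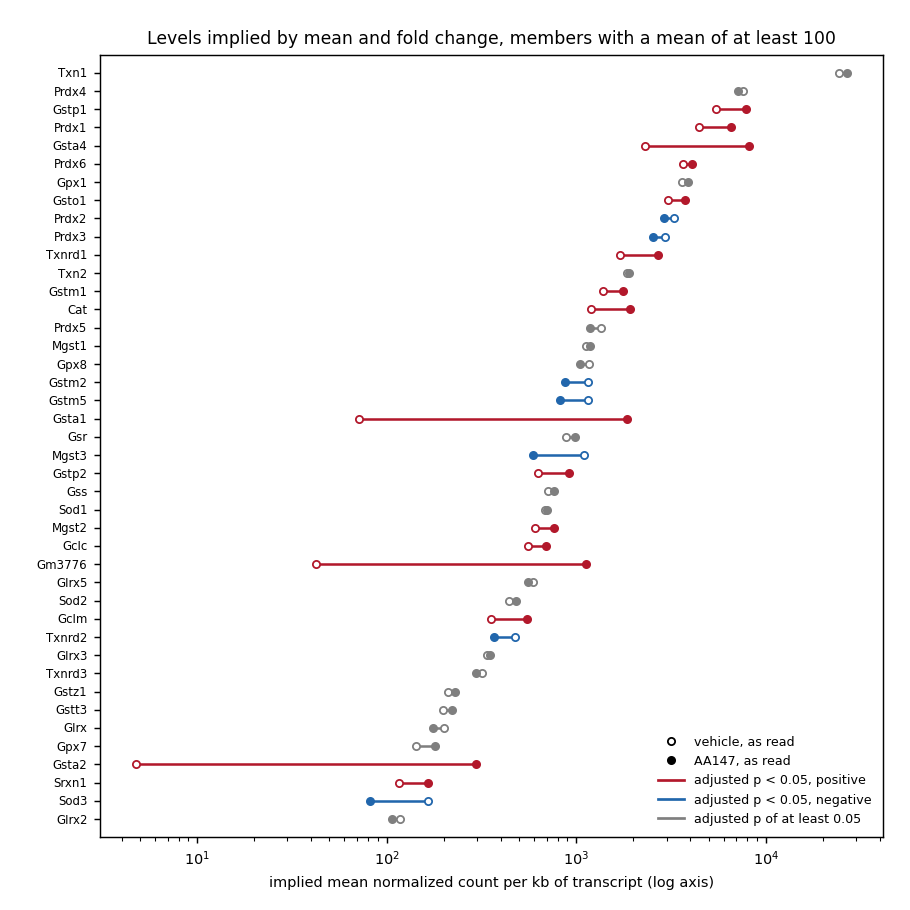
Implied normalized counts per kb of transcript (log axis) in vehicle (open circles) and AA147 (filled circles) as read, for the 42 members with a mean of at least 100, in order of abundance. Lines join the groups and are coloured by call. Txn1 is highest with little change, Gsta4 moves from 2298 to 8217, and Gsta1, Gm3776 and Gsta2 have the longest lines.

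Glutaredoxins, some of which remove glutathione from proteins, gave 0 calls of 4 in the authors' deposited table. Of these 4, 0 had an unadjusted p under 0.05. Their fold changes ran from -0.20 for Glrx to 0.04 for Glrx3 in the authors' deposited table. The intervals of Glrx, Glrx2, Glrx3 and Glrx5 all lay between -0.48 and 0.22.

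Of the enzymes that act on superoxide and hydrogen peroxide, catalase and the extracellular dismutase moved in opposite directions. Cat, the peroxisomal catalase, had a mean of 4060 and was higher at 0.68 (adjusted p 1.66e-22, SE 0.067) in the authors' deposited table. Implied levels were 3117 counts in vehicle and 5002 in AA147. Sod3, secreted extracellular superoxide dismutase, had a mean of 487 and was lower at -1.02 (adjusted p 1.35e-16, SE 0.12) in the authors' deposited table, the lowest called fold change of the members. The cytosolic Sod1 at 0.03 (adjusted p 0.848, SE 0.080) and the mitochondrial Sod2 at 0.12 (adjusted p 0.196, SE 0.068) were not called in the authors' deposited table. Sod1 overlaps Scaf4 on the opposite strand over 79.3% of its canonical transcript, and Scaf4 had a fold change of 0.11.

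**Figure D4:**
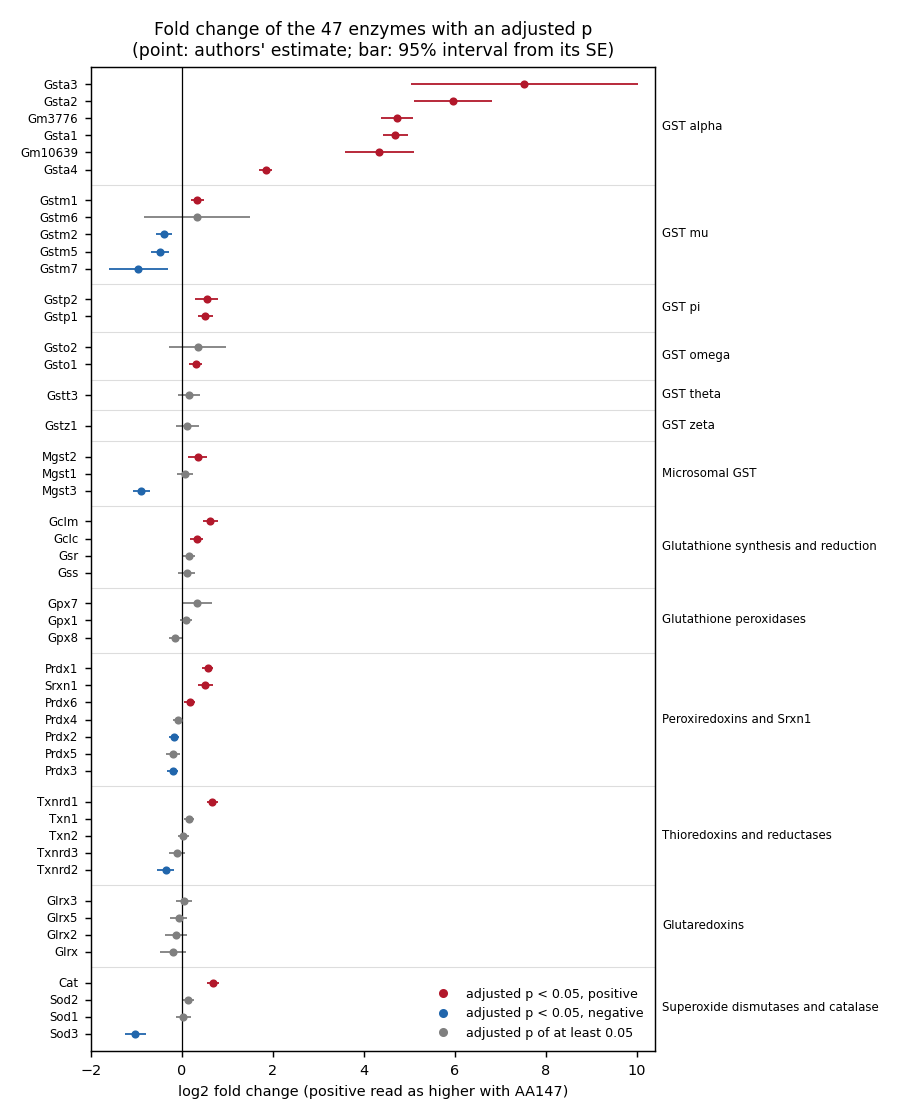
Log2 fold change (horizontal axis) of the 47 members with an adjusted p, grouped by enzyme class. Points are the authors' estimates, bars their 95% intervals from the SE, and colours the call at an adjusted p under 0.05. The alpha GSTs stand apart, and the mu GSTs, microsomal GSTs, peroxiredoxins, thioredoxin reductases and dismutases each hold members on both sides of 0.

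Members were then grouped by where their proteins are known to work, a grouping made after the values were seen. Of 6 mitochondrial members (Prdx3, Txn2, Txnrd2, Glrx2, Glrx5 and Sod2), 0 were called positive and 2 negative in the authors' deposited table, with fold changes from -0.36 to 0.12. Among 4 members of the secretory pathway (Prdx4, Gpx7, Gpx8 and Sod3), 0 were positive and 1 was negative. All 18 positive calls fell among the 37 other tested members, beside 5 negative ones. These others included Prdx5 and the membrane-bound Mgst1, Mgst2 and Mgst3. Placing Mgst2, which was called positive, with the secretory pathway would break this split, so the counts depend on the assignment. Over all genes tested, 9.05% were positive and 11.1% negative, and with 6 and 4 members a count of 0 positive calls does not depart from that share. No test of the difference between compartments was run.

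Promoters were searched for the letters of the antioxidant response element core, TGACNNNGC, on both strands, where the other strand reads GCNNNGTCA. RefSeq windows from 250 bases before to 50 after the start (GRCm38.p6) existed for 47 members, and 10 of these, 21.3%, held the letters. Over the 11025 genes of the deposited table with a window, 16.7% did. The letters were found in 5 of 15 members called positive, 2 of 7 called negative, 2 of 20 not called and 1 of 5 without an adjusted p (Ggt1). Stretches around the match are shown for the positive members, with the matching letters in capitals, on the gene's strand.
Gsta3 (chr1:21240444-21240492): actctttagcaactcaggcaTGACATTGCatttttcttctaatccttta
Gclm (chr3:122245403-122245451): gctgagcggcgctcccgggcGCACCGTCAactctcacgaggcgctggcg
Prdx1 (chr4:116685446-116685494): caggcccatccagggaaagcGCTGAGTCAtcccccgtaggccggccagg
Txnrd1 (chr10:82859094-82859142): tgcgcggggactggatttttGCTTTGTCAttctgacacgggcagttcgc
Srxn1 (chr2:152105542-152105570): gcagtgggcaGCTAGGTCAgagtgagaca
In Gsta3, Gclm, Prdx1 and Txnrd1 the match began 121, 134, 133 and 92 bases before the start, and in Srxn1 at base 29 after it. The 2 negative members with the letters were Gstm5 and Gstm7, and Mgst1 and Sod1 held them without a call. A match of this kind is a description of letters and not a binding site.

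Genes that feed the same pathways were counted from lists of general knowledge, chosen with earlier results of these data known. The counts are therefore a description. The shares over all genes tested were 9.05% positive and 11.1% negative, and no list was tested against them. The pentose phosphate pathway and related enzymes supply the NADPH that both reductases use, and all 8 listed genes in the authors' deposited table were called, 4 positive and 4 negative. Taldo1 at 0.88, G6pdx at 0.61, Pgd at 0.59 and Me1 at 0.35 were higher, while Idh1 at -0.85, Tkt at -0.56, Pgls at -0.38 and Idh2 at -0.24 were lower in the authors' deposited table. G6pdx and Pgd carry out the oxidative, NADPH-forming steps, and Pgls acts between them. Tkt and Taldo1 carry out the non-oxidative exchange of sugar phosphates. Both branches held called genes of either sign.

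Most called genes of precursor supply were negative. Of the 7 tested genes for cystine and amino acid supply, 1 was positive and 4 negative in the authors' deposited table. For this and the next lists, the shares over all genes tested were 9.05% positive and 11.1% negative. Cth, which makes cysteine from cystathionine, was lower at -0.65 (adjusted p 3.97e-11, SE 0.091), and Slc3a2, the heavy chain of the cystine transporter and of other amino acid transporters, at -0.50 (adjusted p 3.09e-14, SE 0.062) in the authors' deposited table. Slc7a11, the transporter's cystine-specific light chain, had a mean of 125 and -0.40 (adjusted p 0.179, SE 0.21) there and was not called. Glul, glutamine synthetase, was the positive one at 0.44 in the authors' deposited table. Of 8 tested genes for export and mitochondrial import of glutathione and related solutes, 4 were positive and 0 negative in that deposited table. The positive ones included the exporter of glutathione conjugates Abcc1 at 0.33 (adjusted p 6.40e-06, SE 0.065) and Slc25a40 at 0.55 (adjusted p 0.00802, SE 0.17). The other 4 were not called, among them Slc25a39 at 0.0028 (adjusted p 0.984) with a mean of 12771, against 204 for Slc25a40, in the authors' deposited table. Of 8 genes for glutathione breakdown and recycling, Ggct at 0.73 and Chac2 at 0.40 were positive, with adjusted p-values of 0.0476 and 0.0480, and Anpep at -1.19 was negative in the authors' deposited table.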

How the data were processed

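The report rests on 6 HT22 libraries, per the labels non-stranded mRNA sequencing, summarised by the authors in 1 gene-level table. Per the submitters' processing notes the tool was DESeq2 and the genome build mm9; aligner, counter, annotation and read filters are not given in the sources used here. Each line of the table that the authors deposited holds a normalized count averaged over the libraries (a signal), a log2 fold change, its SE, a score (the test statistic, fold change over SE) and p-values before and after adjustment. The adjustment equalled a Benjamini-Hochberg adjustment over 13597 genes; another 2875 of low mean had none.

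From these, 95% intervals were computed from the fold change and SE by the normal distribution, and group levels from the mean and fold change with equal group sizes. Lengths, coding sequences and overlaps came from canonical transcripts of GENCODE M39 (GRCm39), found for all 53 members, and promoters from RefSeq (GRCm38.p6). Gm3776 and Gm10639 were linked to GENCODE names by an exact match of their promoter windows. No gene coordinates of the counts are given, since no mm9 annotation was used here.

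Every gene matching the symbol rule was a named gene. Members and gene lists were chosen with earlier results of these data known. Library depths are unknown. The p-value adjustment, the null-interval test and the implied group levels computed here, not the authors' own fit, were tested on simulated fold changes. Python 3.11.15, pandas 2.3.3, SciPy 1.17.1 and Biopython 1.88 were used.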

Additional observations from a re-analysis of the deposited data

How the results depend on the processing

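No paired analysis was possible because the analysis used a comparison of groups without values of individual libraries. A replicate block, fits without 1 replicate and refits with another tool were for that reason not run, and coding lengths came from GENCODE in place of a protein table. The 18 positive calls became 12 to 21 under 8 of the alternatives. Negative calls, 8 at first, numbered 3 with a Bonferroni adjustment, 3 when a log2 change of 0.5 in size was also required, 2 when the statistic was divided by its robust SD of 1.80, and 6 to 9 under the others except the next. A null interval of 0.5 left 6 positive and 2 negative calls. These settings are stricter by construction. Division by the robust SD removed Gclc, Gstm1, Gsto1, Gstp2, Mgst2 and Prdx6 from the positive calls. It removed Gstm2, Gstm5, Gstm7, Prdx2, Prdx3 and Txnrd2 from the negative calls. The Bonferroni adjustment removed the same members except Gstm1 and Gstm2, which stayed called. Without members sharing over 20% of their sequence, chosen after the data were seen, 11 positive calls were left, as fewer genes were counted. Txn1 stayed the most abundant member per length, and requiring an A after the core letters of the response element left 2 members in place of 10. Centring on equal totals, at -0.05, raised the positive share of all calls from 44.9% to 63.6% (2018 positive, 1153 negative). Among single members, that centring added 3 calls (Gsr, Sod2 and Txn1) and removed 2 (Prdx2 and Prdx3). Centring on abundant genes added Prdx5 and removed Prdx6, and adjusting over every gene removed Prdx6. No called member could change sign here, because both centres, 0.01 and -0.05, were smaller in size than every called fold change. The depth of single libraries, which limits members of low mean, is unknown.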

Other observations

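Of 7 tested genes listed as glutathione-using enzymes outside these families, 3 were called positive, 0 negative and 4 not called in the authors' deposited table. The shares over all genes tested were 9.05% positive and 11.1% negative. Esd, which hydrolyses S-formylglutathione, had a mean of 8662 and a log2 fold change of 1.33 (adjusted p 5.26e-71, SE 0.073) in the authors' deposited table. Hagh, the hydrolase of the glyoxalase pathway, lay at 0.28 (adjusted p 0.0171, SE 0.094), while Glo1, its partner enzyme, lay at -0.22 (adjusted p 0.339, SE 0.15) and was not called there. Ptgr1 at 1.24 (adjusted p 8.31e-86, SE 0.062) in the authors' deposited table was counted in this list although it is an NADPH-dependent reductase of alkenals and eicosanoids and not a glutathione enzyme.

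Of 12 tested partners and relatives of thioredoxin, 2 were positive, 2 negative and 8 not called in the authors' deposited table, where 9.05% of all genes tested were positive and 11.1% negative. With so few genes, these counts show no departure from those shares. Txnip, an inhibitor of thioredoxin, was lower at -0.59 (adjusted p 3.61e-11, SE 0.083) in the authors' deposited table. Rrm1 and Rrm2, the ribonucleotide reductase subunits that draw on thioredoxin and glutaredoxin, were higher at 0.22 and 0.23, and nucleoredoxin (Nxn) was lower at -0.28 in the authors' deposited table.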
